A study of Mus musculus with 12 samples.

Results

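The endothelial marker genes are 33 mouse genes that mark the cells lining blood and lymph vessels, listed by symbol as known markers of endothelium; no threshold on a measured value entered the list, but it was proposed with earlier results of these data known. All 33 were found among the 48795 genes of the deposited count table, and they were followed across 6 sorted prostate cell populations. The mice were wild-type C57BL/6 animals of 6 to 8 weeks. Dissociated prostate cells were first depleted, by flow cytometry, of cells carrying CD31 (an endothelial surface protein, the product of Pecam1), CD45 (leukocytes) or Ter119 (red cells), and the luminal cells were then divided into those with (LY6D+) and without (LY6D-) the surface protein LY6D, and each of these by a high, intermediate (int) or low amount of SCA1, which Ly6a encodes. Each of the 6 populations, LY6D- SCA1high, LY6D- SCA1int, LY6D- SCA1low, LY6D+ SCA1high, LY6D+ SCA1int and LY6D+ SCA1low, has 2 libraries described as biological replicates. The sources used here do not say how many mice went into a library, so the p-values measure only the spread between these libraries.

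Endothelial cells line vessels as a single sheet held together by adherens and tight junctions, and their growth and survival depend on VEGF receptors and on the TIE receptors. Their identity is kept by transcription factors of the ETS family (Erg, Fli1) and the SOXF group (Sox7, Sox17, Sox18), and endothelial cells of many tissues also carry SCA1 on their surface. In a sort for epithelial cells the CD31 gate is meant to remove them. Libraries were made from the 3' ends of polyadenylated RNA, so a count is a tally of 3' tags and depends little on transcript length. Levels are given as CPM, a gene's share of all counts of its library after TMM scaling of library sizes. In such bulk samples, fewer cells of a type and less RNA per cell cannot be told apart.

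Because these genes moved together, the sequence before their transcription start was read for motifs of the 2 factor families. The RefSeq table (GRCm38.p6, the same coordinates as mm10) held 21 promoter windows for 16 of the 33 genes, each running from 250 bases before to 50 after the start, and the other 17 genes had none there. The ETS heptamer CAGGAAG, on either strand, was found in 6 of the 21 windows, belonging to Egfl7, Emcn, Erg, Robo4 and Sele, and in 13.3% of all 32851 mouse windows. The other heptamer searched, CCGGAAG, was in 0 of the 21 and in 8.86% of all windows. The combined forkhead and ETS octamer AACAGGAA, which overlaps the first heptamer, was in 2 windows (Egfl7, Emcn) and in 2.65% of all. The SOX hexamer AACAAT was in 3 windows (Emcn, Erg, Tek) and in 10.7% of all, and AACAAAG was in 1 (Tek) and in 5.85% of all. These matches describe letters only. The upstream bases of 3 members that were called in the comparison of LY6D+ with LY6D- cells and hold the ETS heptamer are shown 5' to 3' along the gene's strand, with the heptamer, or its reverse complement CTTCCTG, in capitals. Sele was taken at chr1:164047984-164048233, Emcn at chr3:137340828-137341066 and Egfl7 at chr2:26580833-26581055, all on the plus strand. None of the printed bases lies in an annotated exon of its gene. The Egfl7 stretch belongs to 1 of several windows of that gene and lies inside the annotated gene, which begins at 26580014.
Sele: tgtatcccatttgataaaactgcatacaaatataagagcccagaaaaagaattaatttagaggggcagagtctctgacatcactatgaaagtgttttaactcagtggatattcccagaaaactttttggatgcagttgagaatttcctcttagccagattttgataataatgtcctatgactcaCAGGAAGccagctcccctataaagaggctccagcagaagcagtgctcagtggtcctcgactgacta
Emcn: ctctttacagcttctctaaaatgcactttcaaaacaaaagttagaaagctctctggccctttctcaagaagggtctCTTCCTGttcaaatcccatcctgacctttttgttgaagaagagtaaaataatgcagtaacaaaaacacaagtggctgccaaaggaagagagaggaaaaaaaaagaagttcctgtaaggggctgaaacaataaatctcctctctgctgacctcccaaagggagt
Egfl7: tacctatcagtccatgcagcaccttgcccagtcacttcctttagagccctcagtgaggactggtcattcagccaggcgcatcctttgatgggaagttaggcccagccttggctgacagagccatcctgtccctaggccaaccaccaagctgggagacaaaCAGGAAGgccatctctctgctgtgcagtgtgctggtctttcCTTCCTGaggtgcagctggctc

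In Sele, which encodes E-selectin, the adhesion molecule that catches leukocytes on activated endothelium, the heptamer begins 66 bases before the start. In Emcn, which encodes the sialomucin endomucin, the reverse complement begins 174 bases before the start and is part of the octamer. Egfl7, which encodes a protein secreted by endothelial cells, has 1 copy on each strand in this window, at 90 and 49 bases before the start.

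Totals ran from 8436185 to 20022077 counts per library, and 15270 genes passed the filter on low counts, all 33 members among them. A gene can pass that filter through the 2 LY6D- SCA1high libraries alone. Replicates differed widely, with a biological coefficient of variation of 1.28 across all genes. LY6D- SCA1low replicate 2 stood apart: of 324 genes outside the endothelial set that were at 20 CPM or more in LY6D- SCA1high replicate 1 and at 5% of that or less in LY6D- SCA1high replicate 2 and in LY6D- SCA1low replicate 1, all had counts in this library, at a median of 15.6% (quartiles 12.6% and 25%) of their level in LY6D- SCA1high replicate 1. For several counts of calls and medians, the value without this library or after subtracting that share is given beside the main one. Levels, calls and orders of libraries for single genes are as deposited unless stated.

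The endothelial genes were not absent from the CD31-depleted cells. Their summed level was 11255 ± 2080 CPM in LY6D- SCA1high, 3210 ± 476 in LY6D- SCA1int and 1249 ± 647 in LY6D- SCA1low (SD, n = 2 each). In LY6D+ cells it was 936 ± 537 CPM at SCA1high, 416 ± 369 at SCA1int and 244 ± 199 at SCA1low. By library, the sum was 9784 and 12726 CPM in LY6D- SCA1high, 2873 and 3546 in LY6D- SCA1int, and 791 and 1706 in LY6D- SCA1low. The LY6D+ libraries had it at 557 and 1316 CPM at SCA1high, 154 and 677 at SCA1int, and 103 and 385 at SCA1low. The LY6D- SCA1high libraries thus lay above all others and the LY6D- SCA1int libraries above the rest, while LY6D- SCA1low overlapped LY6D+ SCA1high, LY6D+ SCA1high overlapped LY6D+ SCA1int, and the latter overlapped LY6D+ SCA1low. Aqp1 alone gave 2616 and 3692 CPM of the sum in LY6D- SCA1high, and without it the sums there were 7169 and 9034 CPM. The mean was highest in LY6D- SCA1high for 32 of the 33 genes, the exception being Flt4. Every one of the 33 genes was at 1 CPM or more in both LY6D- SCA1high libraries and, as deposited, in both LY6D- SCA1low libraries. In the LY6D- SCA1int libraries 6 and 5 of them were under 1 CPM. In LY6D+ cells 12 to 18 of them were under 1 CPM in 4 of the 6 libraries, and 1 and 8 in the second replicates of LY6D+ SCA1int and SCA1low.

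**Figure D1:**
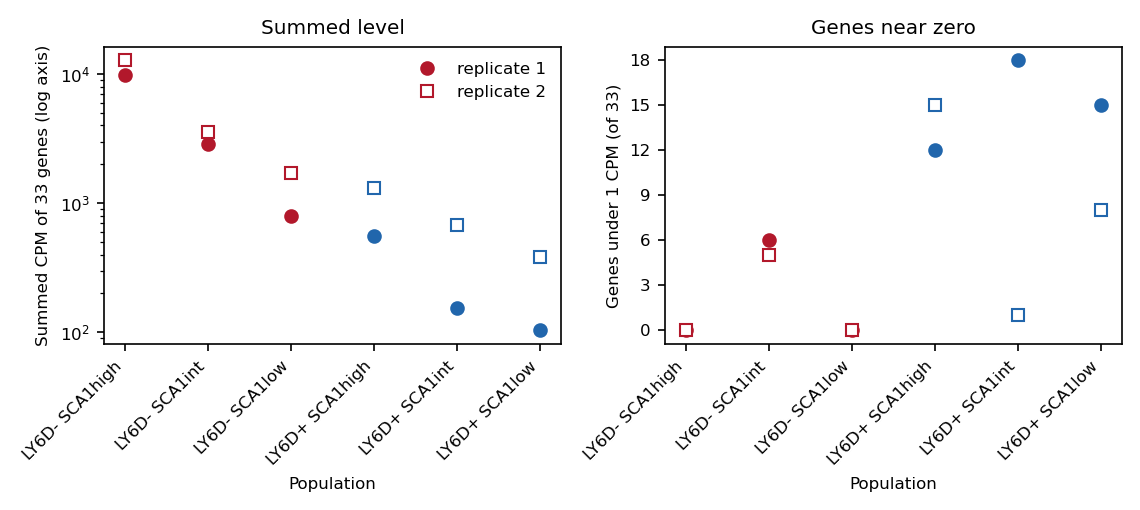
Summed CPM of the 33 genes (left, log axis) and number of the 33 under 1 CPM (right) in each of the 12 libraries, with 1 filled point for replicate 1 and 1 open square for replicate 2 of each population, LY6D- in red and LY6D+ in blue. The LY6D- SCA1high libraries sit at 9784 and 12726 CPM and LY6D+ SCA1low libraries at 103 and 385 CPM. The LY6D- SCA1high and LY6D- SCA1low libraries have 0 genes under 1 CPM.

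**Figure D2:**
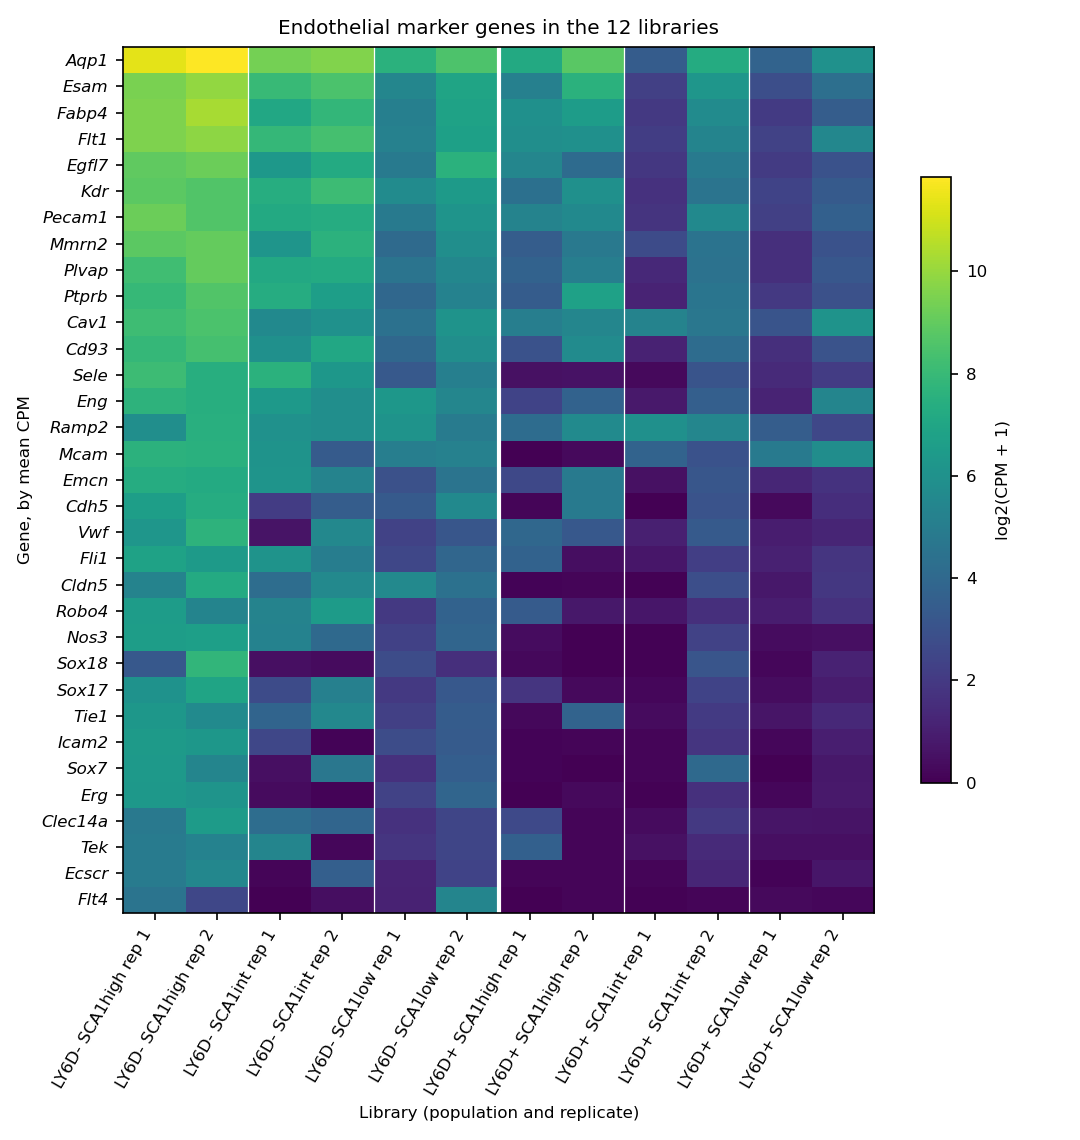
Level of each of the 33 genes, as log2(CPM + 1), in the 12 libraries, genes ordered by mean CPM from top to bottom. The LY6D- SCA1high columns are brightest for nearly all genes, Mcam fades in the LY6D+ SCA1high columns and is brighter at LY6D+ SCA1low, and the lower rows are dark in most LY6D+ columns.

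Pecam1, the gene of the CD31 protein used in the gate (chr11:106654217-106750628, minus strand), tests that gate at the RNA level. It stood at 573 and 401 CPM in LY6D- SCA1high, 144 and 159 in LY6D- SCA1int and 28.6 and 69.3 in LY6D- SCA1low. Its LY6D+ levels were 38.3 and 47.6 CPM at SCA1high, 2.43 and 49 at SCA1int and 3.75 and 11.3 at SCA1low. The LY6D- SCA1high libraries were the highest 2 and the LY6D- SCA1int libraries followed without overlap with any LY6D+ library, whereas LY6D- SCA1low overlapped the LY6D+ range. Averaged over the SCA1 levels, the log2 fold change of Pecam1 in LY6D+ relative to LY6D- cells was -2.92 ± 0.55 (SE; edgeR adjusted p = 0.00235). RNA of CD31 was thus counted in all 12 libraries of the depleted cells. Whether CD31 protein was present was not measured here.

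The comparison of LY6D+ with LY6D- cells, averaged over the 3 SCA1 levels, called 17 of the 33 genes lower and 0 higher by edgeR's quasi-likelihood test at a Benjamini-Hochberg adjusted p below 0.05 over all tested genes, against 1.21% of all genes called lower. All 33 log2 fold changes were negative, from -5.81 to -1.39, with a median of -3.42 against 0.03 over all genes, and all 33 had an unadjusted p under 0.05, as did 20.4% of all genes. Without LY6D- SCA1low replicate 2 and LY6D+ SCA1high replicate 2, the shallowest library, the count was 18. After subtraction of the 15.6% share from LY6D- SCA1low replicate 2 it fell to 7 (Cd93, Cldn5, Egfl7, Esam, Kdr, Mcam and Sele). With the 10th percentile of that share, 10.6%, it was 16, an alternative chosen after seeing the data. The 15.6% subtraction ended the calls of Aqp1, Emcn, Eng, Fabp4, Flt1, Mmrn2, Nos3, Pecam1, Plvap and Ptprb. The values given for these genes are those before it, and the median of the 33 after it was -2.97. In all 6 LY6D+ libraries against all 6 LY6D- libraries, 3 members (Sele, Eng and Cldn5) were lower without overlap as deposited, as were 0.57% of all genes. After the 15.6% subtraction LY6D- SCA1low replicate 2 held Sele at 0 CPM and Eng at 11.2, below their highest LY6D+ levels of 7.41 and 41.7. Cldn5 was at 14.3 CPM there, above its highest LY6D+ level of 6.09. DESeq2 called 31 of the 33 lower, all but Cdh5 and Cav1, against 9.13% of all genes called in either direction, and in the descriptions of single genes "called" refers to edgeR.

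**Figure D3:**
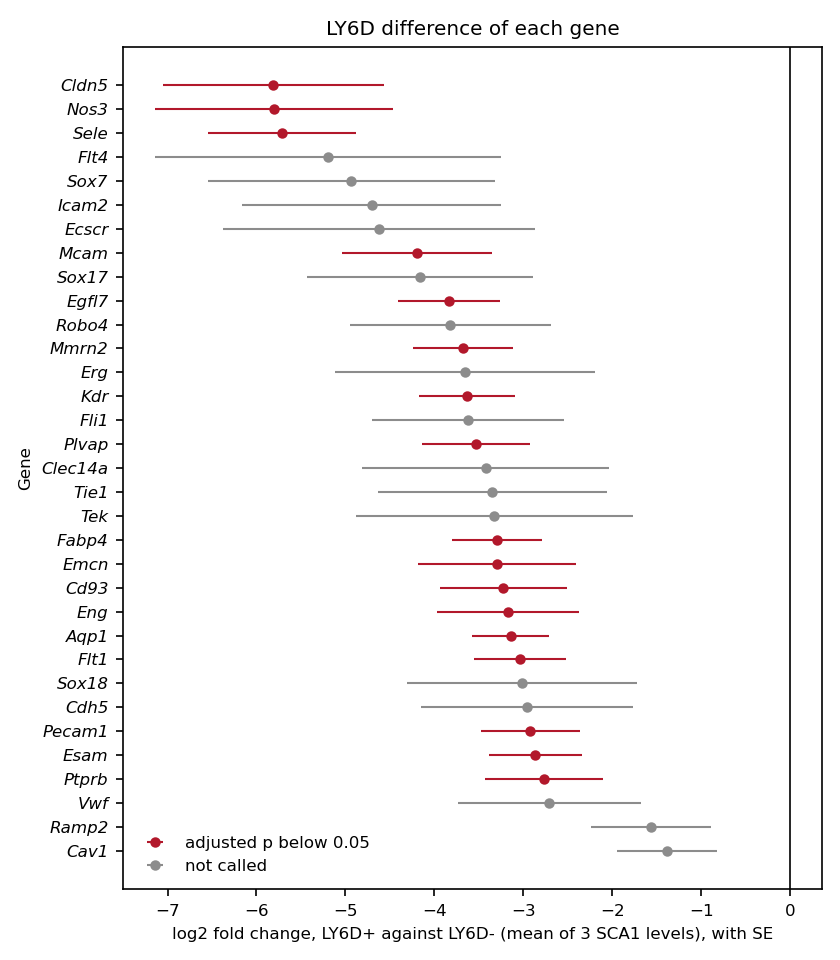
Log2 fold change of each of the 33 genes between LY6D+ and LY6D- cells, averaged over 3 SCA1 levels, with its standard error as a bar, in red where the edgeR adjusted p was below 0.05. All 33 points lie left of 0, from -5.81 (Cldn5) to -1.39 (Cav1).

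Among the VEGF receptors, Kdr (VEGFR2, the main signalling receptor for VEGF-A) and Flt1 (VEGFR1, largely a decoy) were lower in LY6D+ cells. Kdr was at 463 and 392 CPM in LY6D- SCA1high, 166 and 276 in SCA1int and 51.5 and 86.4 in SCA1low. In LY6D+ cells Kdr was at 19.4 and 61.7 CPM at SCA1high, 2.21 and 22.4 at SCA1int and 4.29 and 9.34 at SCA1low. Within each SCA1 level the LY6D+ libraries lay below the LY6D- libraries, and the averaged log2 fold change was -3.63 ± 0.54 (edgeR adjusted p = 0.000108). Flt1 was at 749 and 925 CPM in LY6D- SCA1high, 234 and 331 in SCA1int and 35.7 and 106 in SCA1low. In LY6D+ cells Flt1 was at 57.4 and 60.7, 3.51 and 40, and 4.14 and 43.1 CPM in the same order of SCA1. At SCA1low the Flt1 ranges overlapped, and the averaged log2 fold change was -3.04 ± 0.52 (edgeR adjusted p = 0.000713). Flt4 (VEGFR3, the receptor of lymphatic endothelium) was the one member with its highest mean in LY6D- SCA1low, through 41 CPM in replicate 2 alone. It was at 22.8 and 4.7 CPM in LY6D- SCA1high and at 1.18 in the other LY6D- SCA1low library, held 0 counts in 2 libraries and was not called by edgeR.

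In the TIE system, Ptprb (the phosphatase VE-PTP, which restrains TIE2) was at 246 and 399 CPM in LY6D- SCA1high, 160 and 98.9 in SCA1int and 14.7 and 37 in SCA1low. LY6D+ libraries stood at 9.76 and 109 CPM at SCA1high, 1.29 and 23.1 at SCA1int and 2.91 and 6.61 at SCA1low. The 2 LY6D+ SCA1high libraries were thus over 10-fold apart while still below both LY6D- SCA1high libraries, and Ptprb was called lower (-2.77 ± 0.66, edgeR adjusted p = 0.0194). The receptors Tie1 and Tek, at 76.1 and 49.6 and at 29.2 and 37.3 CPM in LY6D- SCA1high, were not called (edgeR adjusted p = 0.134 and 0.221 for the average), and their lowest levels were 0.18 and 0.118 CPM. Tek also showed 40.6 and 0.172 CPM in the 2 LY6D- SCA1int libraries.

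Eng (endoglin, a co-receptor for BMP9) was at 201 and 169 CPM in LY6D- SCA1high, 84.9 and 57.1 in SCA1int and 75.4 and 42.5 in SCA1low. Among LY6D+ libraries it was at 4.27 and 12.3, 0.755 and 11.2, and 1.3 and 41.7 CPM in the same order. Eng was called lower (-3.17 ± 0.80, edgeR adjusted p = 0.0277), with LY6D+ SCA1low replicate 2 just under the lowest LY6D- library. Its annotation overlaps that of Fpgs on the opposite strand and of Gm26236 and Gm47291 on the same strand, so a part of its tags may be shared. In LY6D- SCA1high replicate 2 Eng had 3994 counts, Gm26236 1943 and Gm47291 1871, against 2574, 119 and 76 in replicate 1. Ramp2 (part of the adrenomedullin receptor) was at 57.5 and 175 CPM in LY6D- SCA1high, 63.7 and 57.1 in SCA1int and 66.3 and 29.8 in SCA1low. The LY6D+ libraries had it at 17.2 and 49.4, 60.2 and 42, and 10.4 and 4.75 CPM. The groups overlapped and Ramp2 was not called by edgeR, and some of its tags may be shared with Vps25, whose annotation it overlaps. In LY6D+ SCA1high replicate 2 Ramp2 had 420 counts and Vps25 419, whereas in LY6D- SCA1high replicate 1 they had 736 and 6. Robo4, a guidance receptor of endothelium, ran from 0.647 to 91.7 CPM and was not called by edgeR.

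The junction and adhesion genes gave 8 of the 17 calls out of 12 genes (Sele, Cd93, Emcn, Mmrn2, Esam, Mcam, Pecam1 and Cldn5). Esam, an endothelial cell adhesion molecule, was at 697 and 989 CPM in LY6D- SCA1high, 249 and 355 in SCA1int and 42.4 and 122 in SCA1low. LY6D+ libraries had it at 34.9 and 188, 3.78 and 73.1, and 6.2 and 19.1 CPM. The averaged log2 fold change of Esam was -2.86 ± 0.52 (edgeR adjusted p = 0.00148), and the groups did not overlap within any SCA1 level. Mmrn2, a matrix protein that binds CD93, was at 462 and 523, 72.4 and 196, and 16 and 56.1 CPM in the LY6D- populations in order of falling SCA1. In LY6D+ cells Mmrn2 was at 10.2 and 26.8, 5.45 and 22.2, and 1.99 and 6.92 CPM. Its averaged log2 fold change was -3.68 ± 0.56 (edgeR adjusted p = 0.000149), again without overlap within a SCA1 level. Cd93, a lectin-like receptor of endothelium, was at 240 and 327, 60.6 and 137, and 14.6 and 57 CPM in LY6D- cells. In LY6D+ cells Cd93 was at 6.97 and 51.5, 1.19 and 17.2, and 1.99 and 7.16 CPM. It was called lower (-3.23 ± 0.72, edgeR adjusted p = 0.011), although LY6D+ SCA1high replicate 2 lay above LY6D- SCA1low replicate 1.

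Sele, whose upstream sequence is shown above, was at 279 and 172 CPM in LY6D- SCA1high, 187 and 76.6 in SCA1int and 8.93 and 34.1 in SCA1low. Its LY6D+ levels were 0.45 and 0.47 CPM at SCA1high, which is 10 and 4 counts, 0.216 and 7.41 at SCA1int and 1.69 and 3.27 at SCA1low. All 6 LY6D+ libraries lay below all 6 LY6D- libraries, with the averaged log2 fold change at -5.71 ± 0.84 (edgeR adjusted p = 8.7e-05). Cldn5, the main endothelial claudin of tight junctions, ranged from 17.9 to 150 CPM in LY6D- libraries and reached 6.09 CPM at most in LY6D+ libraries (-5.81 ± 1.24, edgeR adjusted p = 0.00836). Emcn, whose upstream sequence is also shown, ran from 0.431 to 159 CPM and was called lower at -3.29 ± 0.89 (edgeR adjusted p = 0.0423), and this call was lost in 11 of the 21 alternatives run. Cdh5 (VE-cadherin, the adherens junction protein of endothelium), Clec14a, Icam2 and Ecscr were not called by edgeR. Cdh5 ran from 0 counts in LY6D+ SCA1int replicate 1 to 162 CPM in LY6D- SCA1high replicate 2. Clec14a ran from 0.118 to 90.1 CPM, Icam2 from 0.0858 to 88.2 and Ecscr from 0.0766 to 43.9.

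Mcam (CD146, a surface protein of endothelium that pericytes and smooth muscle also carry) followed another course in LY6D+ cells. It was at 193 and 184 CPM in LY6D- SCA1high, 67 and 9.53 in SCA1int and 32.2 and 36 in SCA1low. In LY6D+ cells it had 0 and 2 counts at SCA1high, the latter being 0.235 CPM, then 12.7 and 6.99 CPM at SCA1int and 28 and 54.2 at SCA1low. Mcam was thus nearly undetected in LY6D+ SCA1high and overlapped the LY6D- libraries at SCA1int and SCA1low. Pooling the 2 libraries of each population, Mcam was 2880-fold higher in LY6D- SCA1high than in LY6D+ SCA1high (6818 against 2 counts, exact 95% interval 797 to 23800, covering counting error only). Within LY6D+ cells it was 631-fold higher at SCA1low than at SCA1high (1063 against 2 counts, interval 174 to 5210). The fitted values were -10.89 ± 1.95 for the former (edgeR adjusted p = 0.00552) and -8.69 ± 1.81 for SCA1high against SCA1low (edgeR adjusted p = 0.0165), and the second call was lost without LY6D+ SCA1high replicate 1 (-7.40). Over the 12 libraries Mcam had the lowest correlation of any member with the mean of the other 32 (Pearson r = 0.54 on log2(CPM + 1), n = 12 libraries), followed by Ramp2 (0.615) and Flt4 (0.621), while Mmrn2 had the highest (0.973).

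Of the secreted proteins, Egfl7 was at 502 and 579 CPM in LY6D- SCA1high, 77.8 and 153 in SCA1int and 28.5 and 188 in SCA1low. The LY6D+ libraries stood at 42.5 and 16.6, 2.8 and 28.1, and 3.14 and 6.92 CPM. Within each SCA1 level the LY6D+ libraries were lower, and Egfl7 was called for the average (-3.84 ± 0.58, edgeR adjusted p = 0.000124). Its locus also holds the microRNA gene Mir126a, whose own row had 0 counts in all 12 libraries. Libraries of 3' tags from polyadenylated RNA do not measure microRNAs, so no absence is read from it. Vwf (von Willebrand factor, stored in endothelial granules for haemostasis) was not called by edgeR, at 74.8 and 199 CPM in LY6D- SCA1high and 0.566 and 45.1 in LY6D- SCA1int.

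Of the genes of caveolae, diaphragms, channels and metabolism, 4 of 5 were called lower. Aqp1 (a water channel of non-brain microvessels) was at 2616 and 3692 CPM in LY6D- SCA1high, 664 and 788 in SCA1int and 189 and 372 in SCA1low. In LY6D+ cells Aqp1 was at 148 and 447, 9.87 and 155, and 12.6 and 63.3 CPM. It had the smallest adjusted p of the 33 genes, at -3.14 ± 0.44 (edgeR adjusted p = 4e-05). Fabp4 (a fatty acid carrier of capillary endothelium and of fat cells) was at 744 and 1256, 138 and 230, and 33.4 and 111 CPM in LY6D- cells. In LY6D+ cells Fabp4 was at 61.2 and 91.7, 2.91 and 51.9, and 3.06 and 10.2 CPM, with an averaged log2 fold change of -3.30 ± 0.51 (edgeR adjusted p = 0.00016). Of 8 fat cell genes, Adipoq, Cidec, Lep and Cfd had 0 counts in all 12 libraries, and the other 4 summed to between 13.8 and 44.5 CPM in LY6D- SCA1high and between 17.3 and 82.0 CPM elsewhere. Plvap (which forms the diaphragms of fenestrae and caveolae) was at 295 and 536, 141 and 151, and 22.3 and 44.2 CPM in LY6D- cells. In LY6D+ cells Plvap was at 12.4 and 32.1, 1.56 and 20.9, and 2.07 and 8.4 CPM (-3.53 ± 0.61, edgeR adjusted p = 0.00076). For Aqp1, Fabp4 and Plvap the LY6D+ libraries lay below the LY6D- libraries at each SCA1 level.

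Cav1, the main protein of caveolae, was at 286 and 359 CPM in LY6D- SCA1high, 48.5 and 63.6 in SCA1int and 20.4 and 67.2 in SCA1low. In LY6D+ cells Cav1 was at 32.2 and 41.7, 39 and 25.2, and 7.51 and 67.1 CPM. It overlapped between LY6D+ and LY6D- at SCA1low, had the smallest averaged difference of the 33 (-1.39 ± 0.56) and was not called (edgeR adjusted p = 0.153), and basal epithelial cells carry it as well. Nos3 (endothelial nitric oxide synthase) was at 96.1 and 103 CPM in LY6D- SCA1high and did not exceed 4.02 CPM in any LY6D+ library, with 3.87 CPM as its lowest LY6D- value. It was called lower (-5.80 ± 1.33, edgeR adjusted p = 0.0144), and the call was lost without LY6D+ SCA1int replicate 1 (-5.47). The 3' ends of Nos3 and of Atg9b, on the opposite strand, overlap on chromosome 5, and the counts of both genes were near equal (1229 and 1109 in LY6D- SCA1high replicate 1, 723 and 726 in LY6D- SCA1int replicate 1), so the value cannot be assigned to Nos3 alone.

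None of the 5 transcription factors was called in any comparison by edgeR, while DESeq2 called 5 of 5 for the average over SCA1 levels and limma-trend 0 of 5. Their averaged log2 fold changes ran from -4.93 (Sox7) to -3.02 (Sox18), all with an unadjusted p under 0.05, and the smallest edgeR adjusted p was 0.0677, for Fli1. In LY6D- SCA1high, Erg was at 79.5 and 68.9 CPM, Fli1 at 113 and 85.9, Sox17 at 65.7 and 119, and Sox7 at 81.9 and 40.8. The lowest levels of Fli1 and Sox17 were 0.353 and 0.162 CPM, and Erg, Sox7 and Sox18 had 0 counts in 1, 2 and 1 libraries. Sox18 was at 8.52 and 225 CPM in the same 2 libraries, the only member over 10-fold apart between them. In LY6D- SCA1int, Erg had 5 and 1 counts (0.257 and 0.0858 CPM), while Fli1 was at 66.6 and 32 CPM. Those factors thus did not keep the same proportions across the LY6D- populations. Erg and Sox18 were the 2 members with a positive log2 fold change for LY6D+ against LY6D- at SCA1int (2.61 ± 2.39 and 3.51 ± 2.27), neither called. In the 2 LY6D+ SCA1int libraries Erg had 1 and 41 counts and Sox18 1 and 147. Both signs thus come from replicate 2 alone, set against few counts in LY6D- SCA1int (8 and 3 for Sox18).

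Taken at each SCA1 level separately, the LY6D comparison rested on 2 libraries against 2. At SCA1high, 4 of the 33 genes were called lower in LY6D+ cells (Mcam, Sele, Mmrn2 and Aqp1), against 0.124% of all genes, and all 33 were lower without overlap, against 21.6% of all genes. The log2 fold changes there were -8.91 ± 1.67 for Sele (edgeR adjusted p = 0.00797), -4.74 ± 1.02 for Mmrn2 (edgeR adjusted p = 0.0321) and -3.41 ± 0.76 for Aqp1 (edgeR adjusted p = 0.0474). The median of the 33 was -3.99 against -0.11 over all genes. Mmrn2 lost its call without LY6D+ SCA1high replicate 1 (-4.21) and without LY6D- SCA1high replicate 2 (-4.73), and the count of calls ran from 3 to 13 when single libraries were left out. After subtraction of the 15.6% share only Mcam was called at this level. At SCA1int no member was called by edgeR, as against 0.203% of all genes called in either direction. An unadjusted p under 0.05 was found for 16 of the 33, against 6.17% of all genes. DESeq2 called 4, against 2.81% of all genes, and limma-trend 0. There, 22 of the 33 genes were lower without overlap, against 17.3% of all genes, and the median was -3.19 against 0.00 over all genes, or -6.22 without LY6D+ SCA1int replicate 2. At SCA1low only Egfl7 was called by edgeR, lower at -4.42 ± 1.03 (edgeR adjusted p = 0.0421), against 0.0917% of all genes called lower. There, 15 of the 33 had an unadjusted p under 0.05, as did 1840 of the 15270 tested genes. The call of Egfl7 was lost without LY6D- SCA1low replicate 2 (-2.54) and without LY6D+ SCA1low replicate 1 (-4.04). As deposited, 30 of the 33 were lower without overlap at SCA1low, against 20.5% of all genes. After subtraction of the 15.6% share 18 of the 33 were at 0 in LY6D- SCA1low replicate 2, and the overlap was not recounted. The median at SCA1low was -2.93 against 0.20 over all genes. Without LY6D- SCA1low replicate 2 that median was -1.99, and after subtraction of the 15.6% share it was -1.28, with 29 genes lower and 4 higher.

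The SCA1 level went with the endothelial genes within LY6D- cells. Between SCA1high and SCA1low, Aqp1 (3.49 ± 0.77, edgeR adjusted p = 0.0209) and Fabp4 (3.79 ± 0.90, edgeR adjusted p = 0.0389) were called higher at SCA1high, against 0.242% of all genes called higher. DESeq2 and limma-trend called neither, nor did edgeR after subtraction of the 15.6% share, and the call of Fabp4 was lost without LY6D- SCA1high replicate 2 (3.32). Without LY6D- SCA1low replicate 2, 6 members were called. All but 3 members, Cldn5, Flt4 and Ramp2, were higher without overlap (30 of 33, against 22.7% of all genes), and the median was 3.36 against 0.53 over all genes (4.27 without LY6D- SCA1low replicate 2 and 5.09 after subtraction). The levels in LY6D- SCA1int lay between for most members. From SCA1int to SCA1high, 33 of 33 fold changes were positive with a median of 1.87, against -0.06 over all genes, and 28 genes were higher without overlap, against 18.1% of all genes. By edgeR none of the 33 was called in that step, as against 0.111% of all genes, with 7 at an unadjusted p under 0.05, against 8.32%. DESeq2 called 4 in it, against 2.88% of all genes, and limma-trend 0. From SCA1low to SCA1int, 27 of 33 fold changes were positive with a median of 1.58, against 0.22 over all genes, and 17 were higher without overlap, against 23.0% of all genes. This median was 2.45 without LY6D- SCA1low replicate 2, 3.39 after subtraction, 0.76 without LY6D- SCA1low replicate 1 and 0.86 without LY6D- SCA1int replicate 2. That step also had 0 calls by edgeR, against 0.177% of all genes, with 7 at an unadjusted p under 0.05, against 9.8%. DESeq2 called 2 in it, against 4.85% of all genes, and limma-trend 0. These 3 comparisons share libraries and are not independent of each other.

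Within LY6D+ cells the fitted directions of the members were mixed, and many of the negative ones rest on few counts. Between SCA1high and SCA1low, 21 fold changes were positive and 12 negative, with a median of 2.05 against -0.17 over all genes. Without LY6D+ SCA1high replicate 1 the median was 0.16, with 17 positive and 16 negative, against -1.51 over all genes, without LY6D+ SCA1high replicate 2 it was 0.85, and without LY6D+ SCA1low replicate 1 it was 1.35. Of the 33, 13 were higher at SCA1high without overlap, as were 13.1% of all genes, and 5 (Cldn5, Flt4, Icam2, Mcam and Sele) were lower without overlap, as were 21.3% of all genes. All 4 of these libraries held 3 counts or fewer of Flt4, and 3 of the 4 held 2 or fewer of Icam2, so no order is read for these genes. Cldn5 had 2 and 1 counts at SCA1high. Sox7, Sox18, Erg, Ecscr and Nos3 were also lower on average at SCA1high, with 7 counts or fewer in each library there. Their ranges overlapped, and no order is read for them either. The lone call by edgeR was Mcam, lower at SCA1high, against 0.288% of all genes called lower. Aqp1, with 148 and 447 CPM at SCA1high against 12.6 and 63.3 at SCA1low, had a log2 fold change of 2.97 ± 0.75 (edgeR adjusted p = 0.109), and Fabp4 one of 3.53 ± 0.89 (edgeR adjusted p = 0.109). Whether the LY6D difference itself changed with SCA1 was tested as an interaction between SCA1high and SCA1low. No member was called by edgeR, against 0.0393% of all genes, with 4 at an unadjusted p under 0.05, against 7.6%. DESeq2 called 1 (Mcam), against 2.55% of all genes, and limma-trend 0. Mcam came nearest, at -11.16 ± 2.21 (edgeR adjusted p = 0.0553).

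Part of the endothelial signal in LY6D- SCA1low sat in the library that stood apart. Replicate 2 of LY6D- SCA1low was above replicate 1 for 29 of the 33 genes. Relative to LY6D- SCA1high replicate 1, the 33 genes stood at a median of 15.0% in LY6D- SCA1low replicate 2, from 10.9% (Vwf) to 180% (Flt4), and at 5.67% in replicate 1, from 2.63% (Sox7) to 123% (Cldn5). The median of 15.0% lies beside the 15.6% of the 324 genes outside the set. Flt4, Cldn5, Ramp2, Cdh5 and Egfl7 stood above the upper quartile of those genes, 25%, in replicate 2. Subtracting the median share left 18 of the 33 genes at 0 in this library and a summed level of 304 CPM, and subtracting the 10th percentile left none at 0 and 673 CPM, against 1706 CPM as deposited and 791 CPM in replicate 1. For Egfl7, which alone was called at SCA1low, the level in replicate 2 went from 188 to 110 CPM with the median share as against 28.5 CPM in replicate 1. How much of the members' counts in this library belonged to its own cells was not tested.

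**Figure D4:**
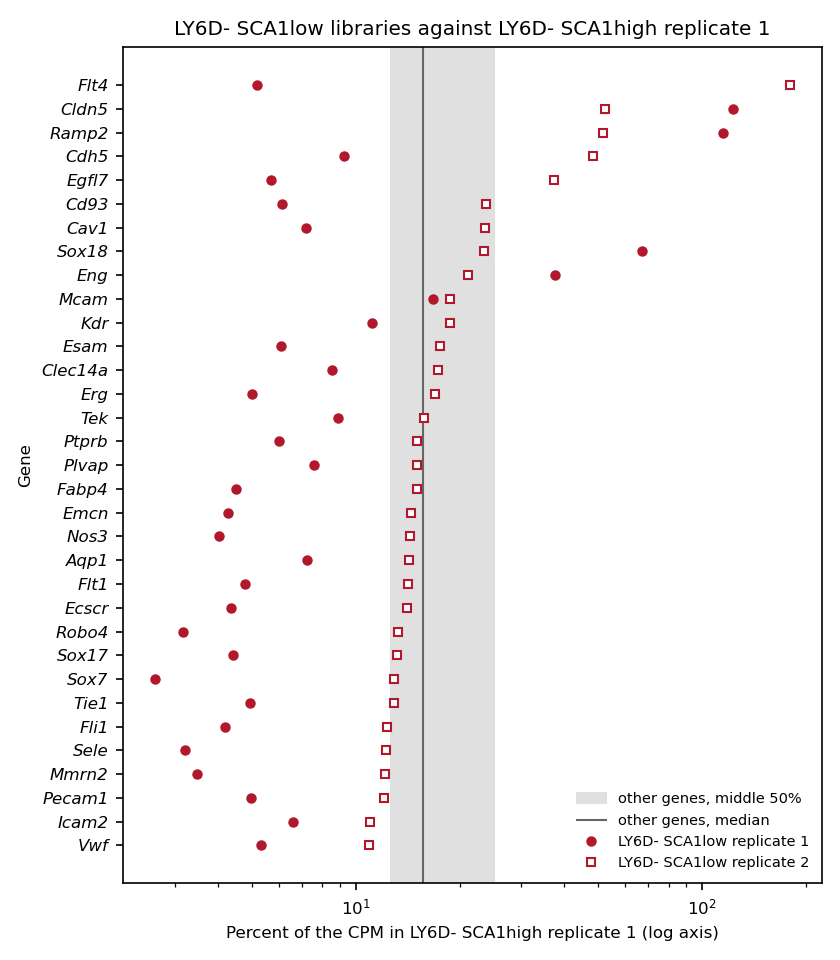
Level of each of the 33 genes in LY6D- SCA1low replicate 1 (filled circles) and replicate 2 (open squares), as a percent of its CPM in LY6D- SCA1high replicate 1, on a log axis. The line and grey band are the median (15.6%) and the quartiles (12.6% and 25%) of 324 other genes in replicate 2, and most squares lie in or beside the band while the circles centre on 5.67%.

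Replicates of 1 population also differed in the other groups. Of the members at 10 CPM or more in either library, 12 of 16 were over 10-fold apart between the LY6D+ SCA1int libraries. Replicate 2 was the higher there for 30 of all 33 genes. It was also the higher for 30 of them in LY6D+ SCA1low and 22 in LY6D+ SCA1high. In LY6D- cells replicate 2 was higher for 20 at SCA1high, 20 at SCA1int and 29 at SCA1low. Between the LY6D- SCA1high libraries, 25 of 33 were within 2-fold and only Sox18 was over 10-fold apart. Between the LY6D- SCA1int libraries, 14 of 29 were within 2-fold and 4 (Sox7, Tek, Vwf and Ecscr) over 10-fold apart. The 12 in LY6D+ SCA1int included the 7 members with the highest mean level, Aqp1, Esam, Fabp4, Flt1, Egfl7, Kdr and Pecam1. In LY6D+ SCA1int replicate 2 the 33 genes stood at a median of 5.04% of their LY6D- SCA1high mean (quartiles 4.04% and 6.44%). The source of the members' counts in that library was not tested.

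Genes of the vessel wall outside the 33, from lists written with earlier results of these data known, were counted in the averaged LY6D comparison by edgeR. In that comparison 1.21% of all tested genes were called lower and 1.27% higher, the shares to set beside each list. Of 35 tested genes of a further pan-endothelial list, 12 were called lower and 0 higher, 32 were negative and the median was -3.30, against 0.03 over all genes. Examples were Tm4sf1 (707 ± 139 CPM in LY6D- SCA1high and 23.8 ± 26.0 in LY6D+ SCA1high, SD, n = 2), Podxl (743 ± 231 and 61.7 ± 2.20), Rasip1, which acts in vessel lumen formation (741 ± 303 and 49.3 ± 57.0), and Igfbp7 (561 ± 11.6 and 68.4 ± 24.5). After subtraction of the 15.6% share 2 of them kept a call, and 9 with the 10.6% share. Of the subtype lists, 2 of 9 venous genes were called lower, Selp (P-selectin, 617 ± 162 against 46.6 ± 43.0 CPM at SCA1high) and Vcam1 (383 ± 232 against 17.9 ± 22.8), and 2 of 11 capillary genes, Cd36 and Gpihbp1, an anchor for lipoprotein lipase. Selp and Vcam1 also gave the 2 calls among 12 genes of activated endothelium. Of 11 arterial genes 1 was called lower (Fbln5). Of 6 lymphatic genes Prox1 was called lower, at 45.5 ± 6.26 against 0.0225 ± 0.032 CPM at SCA1high, and Pdpn, which epithelium also carries, higher. After that subtraction 1 of the venous calls and none of the capillary, arterial or Prox1 calls were left. Gpihbp1, Fbln5 and Pgf were named after their values were seen, to name each call of these short lists.

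The other genes of the pathways in which the members act were read against all genes, of which 2.48% were called by edgeR in either direction, 9.13% by DESeq2, and 20.4% had an unadjusted p under 0.05. Of 12 tested genes of the VEGF pathway other than the members, 1 was called by edgeR (Pgf, higher, a call absent after that subtraction; 6 had an unadjusted p under 0.05 and DESeq2 called 5 of 13), and Epas1, a hypoxia-responsive factor, was at 414 ± 114 CPM in LY6D- SCA1high and between 51.9 and 73.1 CPM on average in the other populations (edgeR adjusted p = 0.362 for the LY6D average). Of 6 genes of the angiopoietin and TIE pathway 0 were called by edgeR (2 at an unadjusted p under 0.05, 1 by DESeq2), and Angpt1, the TIE2 ligand, was at 0.0847 ± 0.12 CPM in LY6D- SCA1high. Of 9 genes of the Notch pathway 0 were called (2 at an unadjusted p under 0.05, 1 by DESeq2), with Hes1 at 338 ± 93.7 CPM in LY6D- SCA1high and 548 ± 152 in LY6D+ SCA1high. Of 9 genes of the BMP9 pathway 0 were called (1 at an unadjusted p under 0.05, 0 by DESeq2), with Id1 at 310 ± 29.2 and 279 ± 57.0 CPM. Of 18 further transcription factors known from endothelium 0 were called by edgeR (9 at an unadjusted p under 0.05, 8 of 19 by DESeq2). Many of these genes are active in epithelium as well, and their levels there cannot be parted from those in endothelium in these libraries.

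Markers of other cell types were read beside the endothelial genes. The leukocyte list summed to between 12.4 and 17.1 CPM in LY6D- SCA1high, the lowest of the 6 populations by a small margin, and between 17.2 and 217 CPM elsewhere, and Cd3e and S100a8 had 0 counts in all libraries, with Ptprc, the gene of CD45, at 0.22 CPM at most. Genes of pericytes and smooth muscle summed to between 183 and 205 CPM in LY6D- SCA1high and to 171 and 175 CPM in LY6D+ SCA1high, and 0 of 11 were called in the LY6D average (3 at an unadjusted p under 0.05, 3 by DESeq2). Genes of erythroid cells and platelets summed to 41.8 and 128 CPM in LY6D- SCA1high. Replicates lay far apart for that list in LY6D- SCA1low (8.66 and 829 CPM) and in LY6D+ SCA1high (4.86 and 431 CPM). Schwann cell and nerve genes summed to 0.86 and 19.5 CPM in LY6D- SCA1high and to between 34.5 and 210 CPM elsewhere. Fibroblast genes summed to between 582 and 716 CPM in LY6D- SCA1high and to between 831 and 1426 CPM in LY6D+ SCA1high. The general epithelial list was lowest in LY6D- SCA1high, between 1155 and 1594 CPM, against 1854 CPM or more in every other library, with Cdh1 at 339 ± 73.0 CPM there and 726 ± 30.7 in LY6D+ SCA1high. Secretory luminal genes, led by Spink1, summed to between 3055 and 5115 CPM in LY6D- SCA1high and to between 34178 and 103027 CPM in the other LY6D- libraries. Basal keratins and partners were called higher in LY6D+ cells for 7 of 9 genes, against 1.27% of all genes. The endothelial genes were thus highest where the general epithelial list was lowest, and the part of one in the other was not tested.

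**Figure D5:**
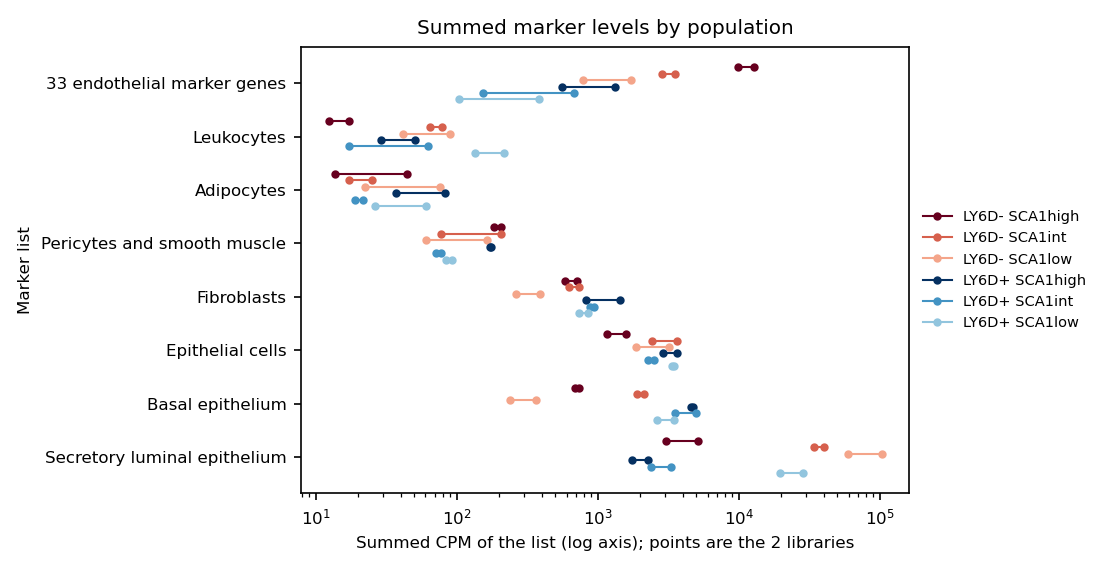
Summed CPM of the 33 endothelial genes and of 7 marker lists of other cell types, on a log axis, with a line joining the 2 libraries of each population. The endothelial sum is highest in LY6D- SCA1high (9784 and 12726 CPM), where leukocyte and general epithelial sums are lowest (12.4 and 17.1 CPM, and 1155 and 1594 CPM).

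By the likeness of their pattern over the 12 libraries to the mean log2(CPM + 1) of the 33 members, 15 genes stood nearest among 7357 genes compared. They were Grrp1 (Pearson r = 0.978), Kank3, Cd36, Atg9b, Plxnd1, Rnd1, Selp, Scarb1, Entpd1, Arap3, Ctla2a, Galnt15, Rasip1, Ifi47 and Ushbp1 (r = 0.949). The median r over all genes compared was -0.01. The 12 points share their libraries and depth, and the LY6D- SCA1high libraries weigh most in each r. Grrp1 was at 394 CPM on average in LY6D- SCA1high, 52.5 in LY6D- SCA1int and 45.1 in LY6D- SCA1low, and between 4.19 and 20.1 CPM in the LY6D+ populations. Atg9b is the gene whose tags cannot be told apart from those of Nos3.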

How the data were processed

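RNA of 12 libraries (6 sorted mouse prostate populations, 2 libraries each) was read as 3' tags from 10 to 20 ng of total RNA, per the labels' protocols. Per the submitters' processing notes, the authors used STAR 2.5.1 for mm10, cutadapt 1.9.1, Picard 1.96, SAMtools 1.3.1, featureCounts and edgeR. The authors deposited whole-number read counts per Ensembl gene, without molecular identifiers named, so PCR copies may be counted and intervals cover counting error only. They also deposited a normalised signal per gene, which equals CPM divided by 1 factor per library, and this was used only in an alternative. Gene symbols came from a GENCODE M21 table and were found for 48349 of 48795 genes, and the 446 without symbol held 0.475% of counts. Library totals ran from 8436185 to 20022077 counts, so 3 counts are 0.150 to 0.356 CPM, before scaling.

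The counts were tested with edgeR 4.0.16 in R 4.3.3: TMM scaling, its default filter (15270 genes kept), 1 mean per population, all 12 libraries (6 residual degrees of freedom) and the quasi-likelihood test, with p-values adjusted over all tested genes and called below 0.05. Log2 fold changes are relative to LY6D- or to the lower SCA1 level. Alternatives used DESeq2 1.42.0, limma 3.58.1 on log2 of the deposited values plus 1, other scalings, no filter, libraries left out, a replicate term and a subtraction of counts shared with another library. Members and gene lists were chosen with earlier results of these data known. The 16 members with the highest mean level are given in every library, the others by range, and named where called or at 0, and of each further list at most 4 tested genes by mean level are named with values. Libraries with the same replicate number also share a prefix in the submitters' descriptions, whose meaning is not given in the sources used here. The main test has no replicate term, since over all tested genes deviations of same-numbered libraries correlated only between -0.28 and 0.21. Most of the 33 members were nevertheless higher in replicate 2 in each of the 6 populations.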

Additional observations from a re-analysis of the deposited data

Results flagged for a closer look

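The order of libraries by SCA1 was opposite in the 2 LY6D states for Mcam, Sele and Icam2: both LY6D- SCA1high libraries were above both LY6D- SCA1low libraries, and both LY6D+ SCA1high libraries were below both LY6D+ SCA1low libraries. The difference between the LY6D differences at SCA1high and at SCA1low was tested as an interaction by edgeR and none of the 3 passed. It was -11.2 ± 2.21 for Mcam (SE; edgeR adjusted p = 0.0553), -5.80 ± 1.82 for Sele (edgeR adjusted p = 0.65) and -5.82 ± 3.33 for Icam2 (edgeR adjusted p = 0.668). In LY6D+ SCA1high these genes had 0 and 2 counts (Mcam), 10 and 4 (Sele) and 2 and 1 (Icam2), so the fitted sizes rest on few counts. Icam2 had 2 and 13 counts in LY6D+ SCA1low, and no fall is shown for it in LY6D+ cells.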

How the results depend on the processing

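The direction of all 25 called results was the same in 21 alternatives, and of these 525 values 474 kept their call, 51 lost it and 0 reversed. All 33 members were lower in the LY6D average in all 21 alternatives. Cd93, Cldn5, Egfl7, Esam, Kdr and Sele kept their call for the LY6D average, and Mcam at SCA1high, in all 21. The scalings shifted the median of all genes for SCA1high against SCA1low in LY6D- cells from 0.53 to 0.09 (DESeq2-type size factors) or 1.04 (library size alone). The number of members called for the LY6D average was 17, from 15 to 21 with 1 library left out, 31 by DESeq2 (where 9.13% of all genes were called) and 7 after subtraction of the shared counts.

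At SCA1high the number was 4, and it was 2 with DESeq2-type size factors, 9 with no filter, 24 by DESeq2, 10 with the replicate block, 1 by limma-trend, 9 without both doubted libraries, 1 after subtraction and from 3 to 13 with 1 library left out. At SCA1int it was 0, and 4 with no filter, 4 by DESeq2, 6 with the replicate block, 9 without both libraries and from 1 to 10 with 1 left out. At SCA1low it was 1, and 4 with no filter, 10 by DESeq2, 4 with the block, 0 by limma-trend, 0 after subtraction and from 1 to 7 with 1 left out. For SCA1high against SCA1low in LY6D- cells it was 2, and 0 with DESeq2-type size factors, 5 with library size alone, 5 with no filter, 0 by DESeq2, 6 with the block, 0 by limma-trend, 8 without both libraries, 1 after subtraction, 6 at the 10th percentile and from 1 to 8 with 1 left out. In LY6D+ cells it was 1, and 3 with library size alone, 4 with no filter, 4 with the block, 0 by limma-trend, 3 without both, 0 after subtraction and from 2 to 5 with 1 left out.

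For SCA1high against SCA1int it was 0, and 1 with no filter, 4 by DESeq2, 2 without both and from 0 to 2 with 1 left out. For SCA1int against SCA1low it was 0, and 2 by DESeq2, 2 without both and from 0 to 1 with 1 left out. For the interaction it was 0, and 1 with library size alone, no filter, DESeq2, the block or without both, and from 0 to 1 with 1 left out. Every library moved at least 1 of these small counts when left out, with 17354 to 17770 genes then tested, and a population left with 1 library was taken to vary like the others. The cause was not tested for the other alternatives. The shares of all genes called moved as well, so these counts are not read for the members alone. At SCA1high they were 0.262% (main), 0.359% (no filter), 0.426% (block), 0.072% (limma-trend) and 0.179% (subtraction). At SCA1int they were 0.203%, 0.198%, 0.282%, 0.0458% and 0.172% in that order. At SCA1low they were 0.472%, 0.477%, 0.655%, 0.373% and 0.45%. Of all genes, DESeq2 called 5.29% at SCA1high, 2.81% at SCA1int and 7.51% at SCA1low in the LY6D comparison. For SCA1high against SCA1low it called 2.27% in LY6D- cells and 5.07% in LY6D+ cells. Its share was 2.88% for SCA1high against SCA1int, 4.85% for SCA1int against SCA1low and 2.55% for the interaction. For SCA1high against SCA1low in LY6D- cells the other shares, in the order above, were 0.635%, 0.614%, 0.838%, 0.406% and 0.714%. In LY6D+ cells they were 0.327%, 0.359%, 0.426%, 0.183% and 0.291%. Replicate numbers go with a shared prefix of unstated meaning in the submitters' descriptions. Over all tested genes, deviations of same-numbered libraries gave no sign of pairing in every pair of populations (r from -0.28 to 0.21). Most members were higher in replicate 2 in each population, so a shift of the members shared by same-numbered libraries cannot be set aside. With the replicate block 17 members were again called for the LY6D average. In the shallowest library 3 counts are 0.356 CPM before scaling, so values below that were not distinguishable from 0.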
